A study of Mus musculus with 120 samples.

Results

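Induction of Gabpa for 24 h was profiled in mouse embryonic stem (ES) cells on 6 of the 120 arrays of the series, chosen by their labels: 3 arrays of induced clones and 3 arrays of the uninduced clones (0 h). The cells derive from EBRTcH3 (EB3), an ES line made for recombinase-mediated cassette exchange at the ROSA26 locus, where a Tet-off promoter keeps the inserted coding sequence off while tetracycline (Tc) is in the medium. Each clone carried the mouse Gabpa coding sequence, from start to stop codon and without untranslated regions, with a 3xFLAG tag at its carboxyl end. Uninduced clones were kept with Tc, and induced clones were washed, replated and grown without it, so that Tc withdrawal and replating go together with the transgene. All cells grew feeder-free on gelatin with leukemia inhibitory factor (LIF). The values are log2 intensities of the Affymetrix Mouse 430_2 array, which were normalized by the robust multi-array average (RMA). The other 18 experiments on this array, each with 3 induced and 3 uninduced arrays of clones for another gene (108 arrays), served as background. Of these, 13 had induced arrays at 24 h, and the clones for Aire, Pdxk, Hunk, Ripk4 and Sim2 were induced for longer.

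GABPA is the DNA-binding subunit of GA-binding protein, an ETS-family transcription factor that recognises a GGAA core. It binds DNA together with a GABPB subunit, which carries the activation domain, and host cell factor HCFC1 is among its partners. It is known as a regulator of housekeeping promoters, among them those of nuclear genes for mitochondrial proteins, and in ES cells it has been linked to the maintenance of the pluripotent state.

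The sequences that define the experiment are the primers with which Gabpa, a gene of mouse chromosome 16, was amplified. In the cloning primers the lower-case ends are the added AscI and PacI recognition sites and the capitals are the part that anneals to Gabpa, beginning with the start codon in the forward primer. The other 2 primers, all capitals, are those the study used to measure Gabpa RNA by PCR.
Gabpa cloning primer fw: ggcgcgccATGACTAAGAGAGAAGCAGAAG
Gabpa cloning primer rev: ttaattaaAATCTCTTTGTCTGCCTGTAGA
Gabpa RT-PCR primer fw: TGACGGCACCAAGCACATTA
Gabpa RT-PCR primer rev: CATTCATCTGTTGCTCTTGG

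Promoters of genes reported elsewhere as GABP targets or partners show what an ETS match looks like in this genome. The windows below come from the RefSeq promoter table for GRCm38.p6, which spans each annotated start and lies mostly upstream of it, and the capitals mark CGGAAGT. The windows were read from chr1:36691515-36691536 (plus strand) for Cox5b, a subunit of cytochrome c oxidase, chr10:71238074-71238100 (minus strand) for Tfam, the mitochondrial transcription factor, chr1:179546227-179546251 (plus strand) for Tfb2m, a second mitochondrial transcription factor, chr5:30073634-30073660 (minus strand) for Tyms, thymidylate synthase, and chr2:152831679-152831703 (minus strand) for Bcl2l1, an inhibitor of apoptosis.
Cox5b promoter: ctcccaccaaCGGAAGTcccgc
Tfam promoter: tgccgcggacCGGAAGTccgggcttcc
Tfb2m promoter: aggccgggCGGAAGTaaacattacg
Tyms promoter: ttctggcggcCGGAAGTttcccagcag
Bcl2l1 promoter: gccgcggcacCGGAAGTggctgcgc
On either strand, CGGAAGT is found in 2109 of 32851 promoters (6.42%), and the longer CCGGAAGTG, which of the windows printed here only that of Bcl2l1 holds, in 666 (2.03%). A match is a description of the letters and does not show binding.

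The transcriptomes were those of ES cells in all 6 arrays. Pou5f1, the central pluripotency factor, read 12.96, 12.90 and 12.94 in induced clones 1, 2 and 3, and 12.91, 13.12 and 12.97 in uninduced clones 1, 2 and 3, where clone numbers are those of the labels. Zfp42, a marker of naive ES cells, lay between 12.60 and 12.66 in induced and between 12.56 and 12.72 in uninduced clones. Of 19 fibroblast (feeder) markers, 8 lay at or above the median level of all probesets. The highest was Vim, the intermediate filament vimentin, at means of 11.16 in induced and 11.15 in uninduced clones, and Fn1 was called higher (0.44) and Thy1 lower (−0.70) in the fit described below, with −0.0035 and −0.04 against uninduced 2. The defining collagen Col3a1 lay between 2.63 and 2.87 in induced and between 2.48 and 2.94 in uninduced clones. The median of an array was 4.94 to 4.98 in induced and 4.92 to 4.96 in uninduced clones, within the range over all arrays of the platform (4.89 to 5.68).

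The transgene was not visible on the array. The Gabpa probeset 1450664_at read 10.55, 10.34 and 10.45 in induced clones and 10.53, 10.47 and 10.32 in uninduced clones. The other, 1450665_at, read 8.89, 8.78 and 8.87 in induced clones and 9.34, 8.69 and 9.14 in uninduced clones. In both probesets the values of the groups overlapped, and the log2 changes were 0.01 ± 0.10 and −0.21 ± 0.13 (SE, limma, 3 clones, adjusted p = 0.987 and 0.618). The first probeset lies at the 95th percentile of all probesets and the second at percentile 87.5, so endogenous Gabpa RNA was abundant. Among the 19 experiments the Gabpa experiment ranked 8 and 17 for the change of the 2 probesets, from highest to lowest. The construct lacks the untranslated regions, and whether the probes lie inside the coding sequence was not tested, so these probesets do not check the labels of induction. The study also measured induction of its clones by PCR and Gabpa protein by blotting for the FLAG tag, and neither is analysed here.

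The arrays did not fall into the pairs that their numbers give, which bears on every result below. As marks of clone identity, 50 probesets were used that differ between clones of the other experiments, chosen without the Gabpa arrays. Over these, the root mean square difference was 0.229 between the libraries labelled induced 1 and uninduced 2, 0.188 between induced 2 and induced 3, and 0.344 between uninduced 1 and uninduced 3. The same-number pairs differed by 1.40 (clone 1), 0.900 (clone 2) and 1.40 (clone 3). In the other experiments, 54 same-number pairs differed by 0.156 to 0.666 (median 0.250), and 108 pairs of different numbers by 0.405 to 3.45 (median 1.22). The probesets were chosen for agreeing within numbers in those experiments, so the values there are a description. Several belong to genes of primitive endoderm, among them Dab2, Gata4, Gata6, Sox7 and Sox17, and whether these read the clone or the state of a culture was not tested. All 3 Gabpa same-number pairs lay beyond every same-number pair of the other experiments. Over all probesets the same-number pairs differed by 0.326, 0.275 and 0.327, against 0.230 for induced 1 and uninduced 2, 0.178 for induced 2 and induced 3 and 0.242 for uninduced 1 and uninduced 3. By both measures the arrays formed the sets induced 1 with uninduced 2, induced 2 with induced 3, and uninduced 1 with uninduced 3. Of the 3 sets, the first is the only one with arrays of both states.

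**Figure D1:**
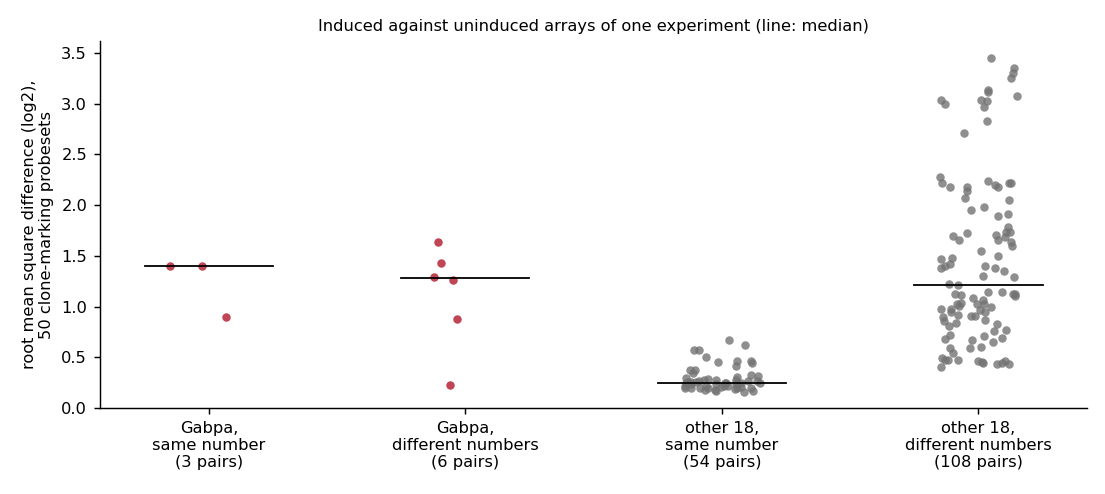
Root mean square difference in log2 intensity over the 50 clone-marking probesets between an induced and an uninduced array of one experiment, 1 point per pair, for same-number and different-number pairs of the Gabpa experiment and of the other 18 (line, median). The Gabpa same-number pairs sit at 0.900 to 1.40, above the highest same-number pair of the other experiments (0.666).

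The genes behind these distances include those of the Y chromosome. Eif2s3y, a Y-linked translation initiation factor subunit, read 9.08, 8.65 and 8.50 in induced clones, against 6.39, 8.92 and 5.83 in uninduced clones. Uty, a Y-linked histone demethylase paralog, read 6.76, 6.68 and 6.59 in induced clones, against 4.19, 6.47 and 3.62 in uninduced clones. Both were low only in the libraries labelled uninduced 1 and uninduced 3, while uninduced 2 lay with the induced arrays. The 3 probesets of Kdm5d, another Y-linked gene, changed by −0.10 to 0.13 and passed no threshold. Efhc2, an X-linked EF-hand gene, ran the other way with 6.58, 6.29 and 6.52 in induced clones, against 9.96, 6.59 and 9.77 in uninduced clones. Rhox5, an X-linked homeobox gene, did likewise (9.58, 9.84 and 9.77 in induced, 11.89, 9.64 and 11.89 in uninduced clones).

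A separate set of the clone-marking genes joined induced 1 with uninduced 2. Srgn, the core protein of serglycin, read 9.10, 7.10 and 7.20 in induced clones and 7.78, 8.92 and 7.38 in uninduced clones. Cubn, which encodes the endocytic receptor cubilin, read 7.90, 6.16 and 6.19 in induced clones and 5.77, 7.27 and 5.33 in uninduced clones. Amn, its partner amnionless, read 7.67, 6.24 and 6.10 in induced clones and 6.86, 7.59 and 6.36 in uninduced clones. For all 3 genes the highest 2 of the 6 values were those of induced 1 and uninduced 2, so that the groups overlapped and same-number differences had opposite signs. Whether these 3 genes read the clone or the state of a culture was not tested either.

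**Figure D2:**
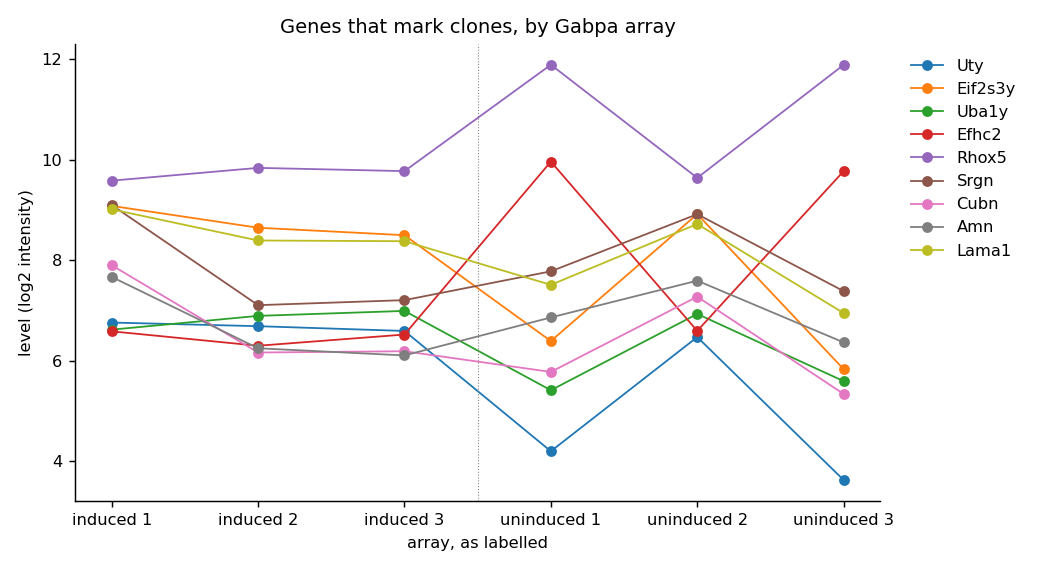
Log2 intensity of clone-marking genes in each of the 3 induced and 3 uninduced Gabpa arrays. The Y-linked genes are low in uninduced 1 and 3 alone (Eif2s3y 6.39 and 5.83, the other 4 arrays 8.50 to 9.08), and Efhc2 is high in the same 2 arrays.

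Chromosome 15 differed in the same libraries. Over 828 probesets of this chromosome that were brighter (mean level at or above the median of the array), the median change was −0.40 in clone 1, 0.02 in clone 2 and −0.31 in clone 3, and 84.2%, 45.5% and 82.7% of them were lower in the induced array. Measured against the probesets' means over the 6 arrays, the chromosome's median stood at −0.14, −0.09 and −0.09 in induced clones, against 0.24, −0.11 and 0.21 in uninduced clones. Only uninduced 1 and uninduced 3 were above 0. In the other 54 pairs the chromosome 15 median lay between −0.07 and 0.08, and in the 3 Gabpa pairs the medians of the other chromosomes (1 to 19 and X) lay between −0.06 and 0.05. Against uninduced 2 alone, the median of chromosome 15 was 0.0029. Copy number was not measured, and the karyotype had been examined in 1 clone of a triplicate only, so that a difference between clones and an effect of induction cannot be told apart in uninduced 1 and 3. Results are therefore given with all 6 arrays and, without uninduced 1 and 3, as the 3 induced arrays against uninduced 2. This comparison has a single uninduced array, which is assumed to vary like those of the other experiments. Its fit takes these arrays as 1 clone, although only induced 1 formed a set with uninduced 2. For induced 2 and 3, a difference between sets and an effect of induction cannot be told apart in it either.

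**Figure D3:**
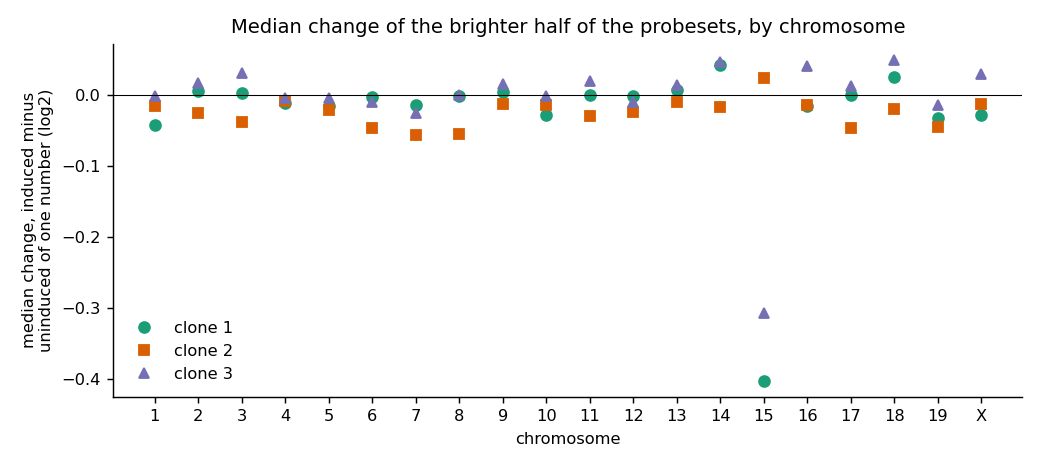
Median log2 change (induced minus uninduced array of one number) over brighter probesets, per chromosome, in the 3 Gabpa clones. Chromosome 15 stands at −0.40 and −0.31 in clones 1 and 3 and at 0.02 in clone 2.

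Across all 45101 probesets, 0 passed an adjusted p under 0.05 when limma was fitted to the 6 Gabpa arrays with clone number as a block (lowest adjusted p 0.181). At an unadjusted p under 0.05, 5196 probesets passed (11.5%), of which 2818 were higher (6.25%) and 2378 lower (5.27%) after induction. With Cyber-t the study found no significant response to Gabpa, which it classed as a silent gene. A version of Cyber-t run here on same-number differences called 101 probesets (79 higher, 22 lower). It takes the numbers as pairs, whereas the paper describes a comparison of the induced with the uninduced arrays. The count of 101 is therefore not the study's result. The methods' t-test called 0. Without replicate 2, limma called 1959 (1160 higher, 799 lower). With the spread shared over all arrays of the platform, the 6 Gabpa arrays and the 108 others, which gives 38 residual degrees of freedom in place of 2, 3921 probesets passed (8.69%), 2127 higher (4.72%) and 1794 lower (3.98%). The median residual variance of the Gabpa experiment (0.01637) ranked 3 of 19, so that sharing the spread takes the Gabpa arrays as less variable than they were. This fit has clone number within experiment as a block, although the numbers of the Gabpa arrays did not mark pairs. Without the block, which adds the differences between clones of every experiment to the spread, 520 probesets passed (1.15%), 417 higher and 103 lower. With the block but without clone 3, 816 passed (430 higher, 386 lower). Against uninduced 2 alone the shared fit called 90 probesets (0.2%), 47 higher and 43 lower.

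Below, a gene is said to be called when it passed the shared fit with all 6 arrays and the block, so every such call depends on that fit. Of the 659 genes in the lists described below, 86 were called in it (13.1%), beside 9.36% of all genes taken at 1 probeset each. Without the block 2 of the 659 passed, Mrps10 and Mrps18a, beside 0.412% of all genes. Against uninduced 2 alone 0 passed in limma's shared fit, beside 0.176% of all genes, and the lowest adjusted p of a member was 0.0525. Without clone 3, 12 of the 659 passed.

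The leading genes were chosen by smallest p among probesets that moved one way in all 3 clones. The mean of the higher state had to reach the median of all probesets. A gene could pass by that state alone, as Kcnq1ot1 did (means 5.64 induced and 3.97 uninduced). The 12 on the higher side were Kcnq1ot1, Gm13238, Gmps, Birc6, Cenpp, Nbeal1, Chd8, Ttc14, Fubp1, Rtn4, Spink1 and Kmt2c, and none passed the adjusted threshold in limma's fit of the 6 arrays (adjusted p = 0.181 to 0.212). Kcnq1ot1, the long antisense RNA of the imprinted Kcnq1 domain, read 5.37, 6.10 and 5.44 in induced clones, against 3.80, 4.54 and 3.56 in uninduced clones. All induced arrays lay above all uninduced arrays. The log2 change was 1.67 ± 0.11 in limma's fit of the 6 arrays (SE, 3 clones, adjusted p = 0.181). In the shared fit its SE was 0.24 (limma, adjusted p = 7.72e-06). Chd8, a chromatin remodeller, read 6.05, 6.18 and 6.11 in induced clones, against 5.32, 4.98 and 5.01 in uninduced clones, again with no overlap. Its change of 1.01 ± 0.16 (SE, shared fit of limma, adjusted p = 4.3e-05) was 1.13 against uninduced 2 alone. Kmt2c, a histone H3 lysine methyltransferase, read 8.36, 8.37 and 8.37 in induced clones, against 7.50, 7.63 and 7.19 in uninduced clones. Its change of 0.93 ± 0.14 was called in the shared fit (SE, limma, adjusted p = 9.63e-06) and was 0.74 against uninduced 2.

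The other genes of this group also had no overlap between induced and uninduced arrays, which held for 8.05% of all probesets on the higher and 7.61% on the lower side. All 12 were chosen by small p in the same arrays, so neither this nor a call in the fits below is separate evidence. Gmps, the GMP synthetase of purine synthesis, read 5.83, 6.57 and 6.08 in induced clones, against 4.98, 5.10 and 4.69 in uninduced clones. Birc6, a large ubiquitin ligase that inhibits apoptosis, read 5.34, 5.64 and 5.51 in induced clones, against 4.49, 4.72 and 4.24 in uninduced clones. Fubp1, a single-strand DNA-binding regulator of Myc, read 7.51, 7.54 and 7.54 in induced clones, against 6.78, 6.81 and 6.70 in uninduced clones. The 3 induced values of Fubp1 were nearly equal, and so were its uninduced values at a lower level. Rtn4, the reticulon that shapes the endoplasmic reticulum, read 7.55, 7.55 and 7.68 in induced clones, against 6.84, 6.71 and 6.66 in uninduced clones. Cenpp, a centromere protein, changed by 0.97, Nbeal1 by 1.11, Ttc14 by 0.77, Gm13238 by 1.10 and Spink1, a trypsin inhibitor, by 1.16. All 12 were called in the shared fit (limma, adjusted p = 1.64e-06 to 0.00318), and 10 of them without the block, where Rtn4 and Spink1 had adjusted p = 0.0939 and 0.421. Against uninduced 2 only Chd8 and Gm13238 were called (Gm13238 0.96, adjusted p = 0.0366).

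On the lower side, the 12 genes chosen in the same way included Crxos, Aurkc, Tex12, Syce3 and Id4. Crxos, a homeobox gene expressed in ES cells, read 5.99, 4.90 and 4.70 in induced clones, against 7.28, 6.23 and 6.90 in uninduced clones. It changed by −1.60 ± 0.19 in limma's fit of the 6 arrays (SE, 3 clones, adjusted p = 0.212). In the shared fit its SE was 0.20 (limma, adjusted p = 5.79e-07). Aurkc, the Aurora kinase of meiotic cells, read 7.36, 6.48 and 6.59 in induced clones, against 8.49, 7.44 and 8.37 in uninduced clones. Tex12, a component of the synaptonemal complex that joins meiotic chromosomes, read 4.42, 4.07 and 4.08 in induced clones, against 5.39, 4.85 and 5.06 in uninduced clones. In these 3 genes every induced array lay below every uninduced array, although the gap was narrow for Aurkc, where induced 1 (7.36) came next to uninduced 2 (7.44). Syce3, another synaptonemal complex gene, which lies on chromosome 15, read 5.52, 4.96 and 4.81 in induced clones, against 6.19, 5.90 and 5.81 in uninduced clones. Id4, an inhibitor of basic helix-loop-helix factors, read 5.76, 4.98 and 5.04 in induced clones, against 6.48, 5.84 and 5.997 in uninduced clones, where induced 1 came close to uninduced 2.

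The remaining 7 of the 12 genes on the lower side changed by between −1.01 and −0.81. Pdlim4, an actin-associated PDZ and LIM protein, changed by −0.93, Mipol1 by −1.01, the decoy receptor gene Tnfrsf22 by −0.98, the tweety family gene Ttyh2 by −0.81, the axonemal dynein gene Dnaic2 by −0.91, the ubiquitin ligase gene Marchf11 by −0.98 and the heparan sulfate proteoglycan gene Sdc2 by −0.89. Of these, Marchf11 and Sdc2 lie on chromosome 15. Only Ttyh2 had overlapping groups, with 6.56, 5.64 and 6.02 in induced clones and 7.24, 6.53 and 6.88 in uninduced clones. All 12 were called in the shared fit (limma, adjusted p = 5.79e-07 to 0.0243), which uses the values by which they were chosen. Without the block 4 of them passed (Crxos, Tex12, Tnfrsf22 and Sdc2), and against uninduced 2 none did, with changes of −1.03 to −0.39 and adjusted p = 0.0527 to 0.631.

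**Figure D4:**
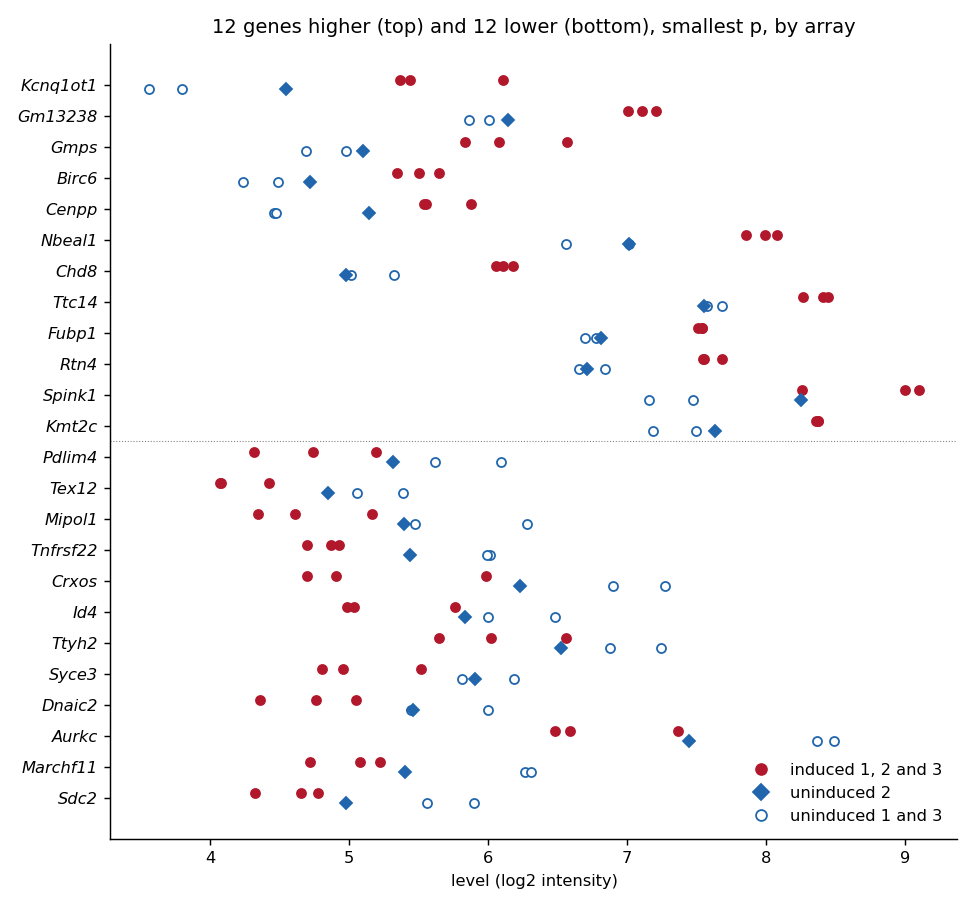
Log2 intensity of the 24 genes with the smallest p in each direction, 1 point per array, with induced arrays filled in red, uninduced 2 as a blue diamond and uninduced 1 and 3 as open circles. Kcnq1ot1 shows the largest change on the higher side (1.67) and Crxos on the lower side (−1.60), and of the 24 genes only Ttyh2 has overlapping groups.

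Nuclear noncoding RNAs and probesets without an annotated gene were also among those called higher. Among the 1994 brighter probesets that carry no gene, 18.7% were called higher and 2.96% lower in the shared fit, against 5.78% and 6.91% of the 19984 brighter probesets with 1 gene. Malat1, an abundant RNA of nuclear speckles, read 5.97, 9.04 and 5.82 in induced clones on the probeset 1418188_a_at, against 5.10, 4.75 and 4.48 in uninduced clones. The library labelled induced 2 stood far above the other induced arrays here, and again on 1438403_s_at (7.73, 10.43 and 6.56 in induced, 6.18, 6.04 and 6.13 in uninduced clones). Neat1, the architectural RNA of paraspeckles, read 8.95, 9.04 and 9.22 in induced clones on 1428083_at, against 7.62, 8.77 and 7.79 in uninduced clones. A second probeset of Neat1 changed by −0.06, and the 5 Malat1 and Kcnq1ot1 probesets that were not called had changes between 0.12 and 0.46. Wnk1, a kinase of ion homeostasis, had its maximum in induced 2 as well, at 8.54, 10.64 and 9.07 in induced clones, against 8.38, 7.69 and 7.91 in uninduced clones. Control probesets at the 3′ and 5′ ends of a transcript read RNA quality in part. For the transferrin receptor the 3′ probeset exceeded the 5′ one by 1.88, 2.04 and 2.03 in induced clones, against 1.51, 1.85 and 1.71 in uninduced clones, with no overlap. For pyruvate carboxylase the excess was 1.94, 1.42 and 1.23 in induced clones and 1.09, 1.51 and 0.894 in uninduced clones, for beta-actin 0.407, 0.255 and 0.175 in induced clones and 0.281, 0.359 and 0.140 in uninduced clones, and for Gapdh at most 0.0648 in any array. The groups overlapped for pyruvate carboxylase and beta-actin. For Gapdh every induced array lay above every uninduced one, by a small margin (0.0564 to 0.0648 against 0.003 to 0.0547). The part of RNA quality in the results for noncoding RNAs was not tested.

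Of GABP's own subunits and partners, each taken at its probeset of highest level, Crebbp and Nrf1 were called higher and Hcfc2 lower. These are 14.3% and 7.14% of the 14 genes in the list, beside 3.28% and 6.08% of all 18194 genes taken at 1 probeset each, and 4 had every induced array above every uninduced one, beside 5.51% of all genes. In limma's fit of the 6 arrays 2 were higher and 1 lower at an unadjusted p under 0.05. Without the block 0 of the 14 passed in the shared fit, and the median change was 0.09, against −0.03 over all genes. Gabpb1, the main activating subunit, read 8.66, 8.36 and 8.46 in induced clones and 8.57, 8.86 and 8.44 in uninduced clones. Gabpb2, its paralog, read 8.26, 8.16 and 8.30 in induced clones and 8.42, 8.10 and 8.20 in uninduced clones. On these probesets neither subunit separated the groups (changes −0.13 and 0.0016, limma, adjusted p = 0.727 and 0.995 in the shared fit). A dimmer probeset of Gabpb2 (1443942_at) was called higher in that fit (0.45, adjusted p = 0.0369), with no overlap. Its other dim probesets changed by −0.07 and −0.27 and were not called. Hcfc1, the host cell factor, read 11.03, 11.55 and 11.63 in induced clones and 10.98, 11.24 and 10.95 in uninduced clones, and was not called (change 0.35, adjusted p = 0.111). Crebbp, a histone acetyltransferase and coactivator, read 9.70, 9.80 and 9.81 in induced clones, against 9.38, 9.48 and 9.13 in uninduced clones. Its groups did not overlap, and the change was 0.44 ± 0.10 (SE, shared fit of limma, adjusted p = 0.00311), with 0.29 against uninduced 2. Of the other Crebbp probesets, 1459804_at was called higher (0.62), and 1436983_at and 1434633_at were not called (0.94 and 0.15). Against uninduced 2 the last of these changed by −0.08. Nrf1, a factor of nuclear genes for respiration, read 8.89, 8.73 and 8.77 in induced clones and 8.21, 8.90 and 8.09 in uninduced clones. It was called (0.40 ± 0.10, adjusted p = 0.00501), but uninduced 2 held the highest value of all, and against it the change was −0.10. Of the other Nrf1 probesets, 1445914_at was called higher (0.70), and 1424787_a_at and 1420978_at were not called (−0.01 and −0.23). Hcfc2, a paralog of Hcfc1, was the gene called lower (−0.27, shared fit of limma, adjusted p = 0.0216). Its groups overlapped, with induced 1 at 6.88 and uninduced 2 at 6.84, and the change was −0.14 against uninduced 2. Its other probesets changed by −0.12 and 0.12 and were not called. In the contrast with the other 18 experiments, 2 of the 14 passed higher and 1 lower, beside 3.2% and 6.72% of all genes.

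In the ETS family, 1 of 24 measured genes was called lower and 0 higher, and at an unadjusted p under 0.05 limma's fit of the 6 arrays had 1 in each direction (3.59% of all genes were higher and 7.07% lower by that measure). Ets2, a factor downstream of Ras signalling, read 8.25, 8.05 and 7.9996 in induced clones, against 8.68, 8.57 and 8.41 in uninduced clones. Every induced array lay below every uninduced array, and the change was −0.45 ± 0.10 (SE, shared fit of limma, adjusted p = 0.0015). Against uninduced 2 it was −0.47 and not called, with the lowest adjusted p of the family there at 0.143.

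Of the genes reported elsewhere as GABP targets, Rb1 and Dnmt3b were called. Of 32 measured, 2 were called higher (6.25%) and 0 lower in the shared fit, beside 3.28% and 6.08% of all genes, and 2 were higher and 0 lower at an unadjusted p under 0.05 in limma's fit of the 6 arrays, beside a median change of 0.03 for the list and −0.03 for all genes. Rb1, the retinoblastoma tumour suppressor, read 8.06, 8.69 and 8.65 in induced clones, against 7.79, 7.85 and 7.35 in uninduced clones, with no overlap. Its change was 0.80 ± 0.14 (SE, shared fit of limma, adjusted p = 0.00012), with 0.62 against uninduced 2. Dnmt3b, a de novo DNA methyltransferase, read 10.58, 10.90 and 10.98 in induced clones and 10.52, 10.48 and 10.63 in uninduced clones, and was called (0.28, adjusted p = 0.0121) although induced 1 lay below uninduced 3. Tfam, whose promoter window is printed above, read 10.36, 10.20 and 10.10 in induced clones and 10.28, 10.35 and 10.23 in uninduced clones. Cox5b read 13.02, 12.78 and 12.66 in induced clones and 12.91, 13.02 and 12.82 in uninduced clones. Neither Tfam nor Cox5b was called, and their groups overlapped. Tyms and Bcl2l1 changed by 0.12 and 0.07 (adjusted p = 0.817 and 0.780), and Pou5f1, which is also in this list, by −0.07 (adjusted p = 0.767).

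Genes with an ETS match in the promoter had a median change close to that of the genes without one. The 509 genes with CCGGAAGTG within their promoter window had a median change of −0.0372, against −0.0292 for 13944 genes without it. The medians of the genes with the match were −0.0403, −0.0385 and −0.0291 in clones 1, 2 and 3. Among them 4.91% were called higher and 6.68% lower in the shared fit, against 3.24% and 5.87% of those without, and they were also brighter (median level 8.40, against 6.19). Of the 1571 genes with the shorter CGGAAGT, 3.69% were called higher and 7.26% lower. Of the 32 genes named here by size of change or p that have a promoter in the table, 0 hold CCGGAAGTG and 2 hold CGGAAGT, beside 2.25% and 7.2% of all genes in the table. These are descriptions of the letters in the window, and the absence of a match says nothing about GABPA at the gene.

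Among the nuclear genes for mitochondrial proteins, those of the mitochondrial ribosome had the lowest median change of the 3 lists examined. Of 44 genes of this ribosome, 0 were called higher and 10 lower in the shared fit, beside 3.28% and 6.08% of all genes, and 21 had every induced array below every uninduced one, beside 9.35% of all genes. In the fit of the 6 arrays, 8 were lower and 0 higher at an unadjusted p under 0.05. The median of the list was −0.14, with −0.11, −0.11 and −0.19 in clones 1 to 3 and −0.12 against uninduced 2. Mrps10, a protein of the small subunit, read 9.78, 9.65 and 9.51 in induced clones, against 10.16, 9.96 and 10.08 in uninduced clones. Mrps18a, also of the small subunit, read 9.66, 9.39 and 9.25 in induced clones, against 9.90, 9.76 and 9.78 in uninduced clones. Both kept the groups apart, with changes of −0.42 and −0.38 (shared fit of limma, adjusted p = 0.000382 and 0.00586) and of −0.32 and −0.33 against uninduced 2. Mrpl13, of the large subunit, read 10.96, 10.98 and 10.92 in induced clones, against 11.63, 10.997 and 11.57 in uninduced clones. It lies on chromosome 15, and its change of −0.44 was −0.04 against uninduced 2. Without the block, Mrps10 and Mrps18a were the only members to pass (adjusted p = 0.0366 and 0.0246). None of the 44 was called against uninduced 2 (lowest adjusted p 0.167) or without clone 3.

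Of 48 subunit genes of the respiratory chain, 0 were called higher and 3 lower (6.25%) in the shared fit, beside 3.28% and 6.08% of all genes, 0 passed an unadjusted p under 0.05 in limma's fit of the 6 arrays, and the median was −0.06. Sdhb, the iron-sulfur subunit of succinate dehydrogenase, read 11.08, 10.72 and 10.68 in induced clones, against 11.10, 11.20 and 10.97 in uninduced clones (change −0.26, shared fit of limma, adjusted p = 0.0081), with induced 1 inside the uninduced range. Cyc1, cytochrome c1, and Cox6c, a subunit of cytochrome c oxidase, changed by −0.24 and −0.29 and lie on chromosome 15, and against uninduced 2 they changed by −0.07 and −0.08. Of 18 genes for mitochondrial transcription and replication, 1 was called higher (Nrf1) and 1 lower (Top1mt, the mitochondrial topoisomerase, on chromosome 15, −0.57).

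In the cell cycle, genes of DNA replication were among those called lower and genes of mitosis among those called higher. Of 47 replication genes, 0 were called higher and 9 lower (19.1%), beside 3.28% and 6.08% of all genes. At an unadjusted p under 0.05 in limma's fit of the 6 arrays 0 were higher and 5 lower, beside 3.59% and 7.07% of all genes. The list median was −0.06 with 6 arrays and 0.0016 against uninduced 2. Gins2, a subunit of the replicative helicase complex, read 9.06, 9.01 and 8.91 in induced clones, against 9.32, 9.44 and 9.25 in uninduced clones. Rpa2, of the single-strand binding complex, read 10.33, 10.39 and 10.38 in induced clones, against 10.58, 10.64 and 10.64 in uninduced clones. Both separated the groups, with changes of −0.34 and −0.25 (shared fit of limma, adjusted p = 0.00194 and 0.00862) and of −0.44 and −0.27 against uninduced 2. Of 40 mitosis genes, 4 were called higher and 0 lower in both of these counts, with a list median of 0.04, and of −0.0052 against uninduced 2. Cenpe, a kinetochore motor, read 9.33, 9.23 and 9.22 in induced clones, against 9.02, 8.90 and 8.85 in uninduced clones. Cenpf, Kif11 and Anln, of the kinetochore, the spindle and the cleavage furrow, changed by 0.33, 0.27 and 0.27. Against uninduced 2 Cenpe changed by 0.36 and these 3 by 0.16, 0.11 and 0.13, and none of either list was called there (lowest adjusted p 0.0571 for replication and 0.0762 for mitosis).

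Among 35 genes of G1 control, 4 were called higher (11.4%) and 3 lower (8.57%), beside 3.28% and 6.08% of all genes. Myc, a driver of growth on chromosome 15, read 8.57, 8.72 and 8.54 in induced clones, against 10.07, 8.42 and 9.84 in uninduced clones. Its change of −0.83 ± 0.17 (SE, shared fit of limma, adjusted p = 0.00109) came from uninduced 1 and 3, and against uninduced 2 it was 0.19. Mycn, the family member of early embryos, read 10.30, 10.32 and 10.47 in induced clones, against 9.87, 10.20 and 10.08 in uninduced clones (0.32, adjusted p = 0.0297), with no overlap.

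Of 33 pluripotency genes, 2 were called higher (6.06%) and 3 lower (9.09%), beside 3.28% and 6.08% of all genes, and the list median was −0.0081. Rif1, a replication-timing factor bound to telomeres, read 11.85, 11.91 and 12.07 in induced clones, against 11.45, 11.03 and 11.52 in uninduced clones. Stat3, the effector of LIF signalling, read 10.10, 10.52 and 10.26 in induced clones, against 9.81, 9.997 and 9.85 in uninduced clones. Both kept all induced arrays above all uninduced ones, with changes of 0.60 and 0.41 (shared fit of limma, adjusted p = 0.0249 and 0.0109) and of 0.91 and 0.30 against uninduced 2. Nanog, a core pluripotency factor, read 12.05, 12.25 and 12.30 in induced clones and 12.56, 12.22 and 12.47 in uninduced clones (−0.22, adjusted p = 0.0463), and its change against uninduced 2 was −0.02. Pecam1, an adhesion molecule of ES cells, read 7.71, 7.67 and 7.74 in induced clones, against 8.62, 7.78 and 8.37 in uninduced clones (−0.55, adjusted p = 0.00364), with −0.08 against uninduced 2. Fbxo15, an ES-cell F-box gene, reversed its sign there (−0.28 with 6 arrays, 0.10 against uninduced 2).

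In the signalling lists, some called changes reversed against uninduced 2 and others kept their sign. Id3, a target of BMP, read 7.19, 7.56 and 7.67 in induced clones, against 9.20, 7.16 and 9.28 in uninduced clones. Lefty1, an inhibitor of Nodal, read 7.66, 8.39 and 8.21 in induced clones, against 10.23, 7.79 and 9.82 in uninduced clones. Both had their highest values in uninduced 1 and 3, with uninduced 2 below the mean of the induced arrays, and the changes of −1.07 and −1.19 (shared fit of limma, adjusted p = 0.00122 and 0.00514) became 0.31 and 0.30 against uninduced 2. Of 20 LIF, BMP and Nodal targets, 2 were called higher and 3 lower (15%), and of these 5 genes Id3 and Lefty1 reversed. Of 26 genes of ERK feedback and immediate early response, 1 was called higher and 5 lower (19.2%), and Jun, Ier3 and Myc reversed. Of all genes, 3.28% were called higher and 6.08% lower. Ier2, an immediate early gene, read 10.43, 10.37 and 10.44 in induced clones, against 10.61, 10.79 and 10.72 in uninduced clones, and changed by −0.29 with 6 arrays (adjusted p = 0.0145) and by −0.38 against uninduced 2. Jun, a component of AP-1, and Ier3, a stress-induced gene, changed by −0.69 and 0.79 and by 0.06 and −0.54 against uninduced 2.

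In the amino acid response, 5 of 33 genes were called higher (15.2%) and 3 lower (9.09%), beside 3.28% and 6.08% of all genes. Chac1, a glutathione-degrading enzyme induced by ATF4, read 8.10, 9.06 and 8.48 in induced clones, against 6.89, 8.53 and 6.56 in uninduced clones. Ddit4, a stress-induced inhibitor of mTORC1, read 10.30, 10.08 and 10.18 in induced clones, against 8.89, 10.52 and 8.64 in uninduced clones. Both were low in uninduced 1 and 3 and not in uninduced 2, and their changes of 1.22 and 0.84 (shared fit of limma, adjusted p = 5.34e-05 and 0.00285) were 0.01 and −0.33 against uninduced 2. Phgdh and Psph, enzymes of serine synthesis, changed the other way, by −0.49 and −0.41 (adjusted p = 0.00076 and 0.00135), and by −0.28 and −0.33 against uninduced 2.

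Hypoxia targets, glycolysis and primitive endoderm followed the set of induced 1 and uninduced 2. The median deviation of 20 hypoxia targets from their means was 0.42, −0.42 and −0.23 in induced clones and 0.04, 0.31 and −0.17 in uninduced clones, and the median change was 0.48, −0.58 and −0.04 in clones 1 to 3. Egln3, a prolyl hydroxylase that is itself a target of hypoxia-inducible factor, read 8.71, 6.58 and 7.36 in induced clones and 7.35, 8.33 and 7.09 in uninduced clones. Over 19 glycolysis genes the median change was 0.28, −0.45 and −0.13 in the 3 clones. Over 22 primitive endoderm genes it was 0.35, −0.52 and −0.11. Dab2, an endocytic adaptor of that lineage, read 8.05, 6.57 and 6.57 in induced clones and 7.26, 7.56 and 7.10 in uninduced clones, while Gata6 and Gata4, which define the lineage, lay between 5.11 and 6.20 in induced and between 5.18 and 6.53 in uninduced clones. In each of these genes the groups overlapped, and induced 1 and uninduced 2 were the highest of their groups. Dab2, Gata6 and Gata4, like the lineage's markers Sox7 and Sox17, are among the clone-marking genes by which the sets were formed. The place of primitive endoderm here is therefore no separate evidence. With all 6 arrays, 2 of 20 hypoxia targets were called higher (10%) and 1 lower (5%), beside 3.28% and 6.08% of all genes. Of 19 glycolysis genes 1 was higher (5.26%) and 2 lower (10.5%), and of 22 primitive endoderm genes 1 was higher (4.55%) and 0 lower. In the contrast with the other 18 experiments, 7 hypoxia targets and 6 glycolysis genes passed lower and 1 and 0 higher, beside 6.72% and 3.2% of all genes. Over those experiments the 2 list medians were 0.25 and 0.13.

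**Figure D5:**
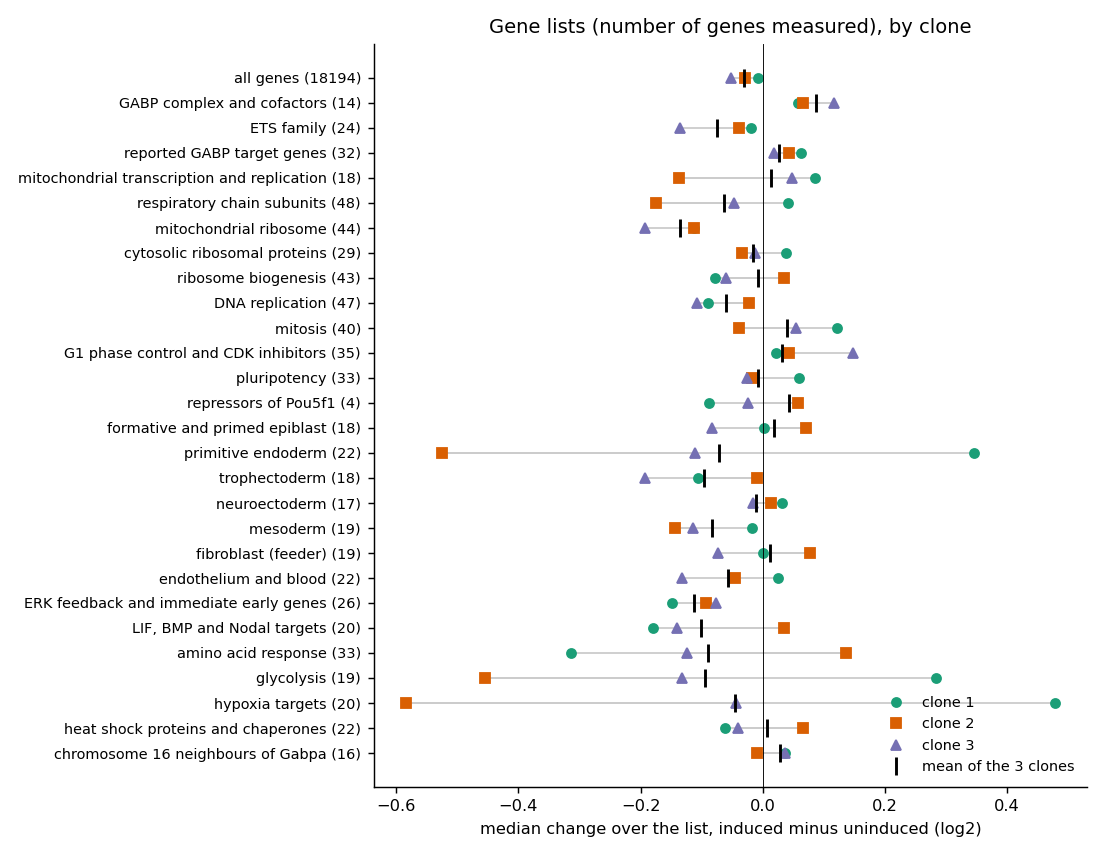
Median log2 change of each gene list in the 3 clones (symbols) and of the mean change over clones (bar), with all genes in the top row (−0.03). The mitochondrial ribosome lies at −0.11, −0.11 and −0.19 in clones 1 to 3, whereas hypoxia targets lie at 0.48, −0.58 and −0.04.

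The contrast with the other 18 experiments set the Gabpa change against the mean change in clones for other genes, which likewise underwent Tc withdrawal and replating but also induced a transgene of their own. In single experiments of these 18 the shared fit called up to 5989 probesets (Erg). Here 4098 of 45100 probesets passed an adjusted p under 0.05 (9.09%), 2129 higher (4.72%) and 1969 lower (4.37%), and 145 passed when uninduced 2 was the only uninduced array (78 higher, 67 lower) and 564 without the block. In 3322 probesets the change was called in this contrast and in the shared fit. With only the 13 other experiments at 24 h as the reference, 3521 probesets passed (1979 higher, 1542 lower). For 9633 probesets (21.4%), the Gabpa change lay beyond that of every one of the other 18 experiments.

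With each gene taken at its probeset of smallest p in the 6-array fit, the genes of largest difference on the higher side were Uty (2.01), Kcnq1ot1 (1.69), Chac1 (1.68), Mid1 (1.66), Aass (1.51), Uba1y (1.42), Jmjd1c (1.42), Spink1 (1.35), Wnk1 (1.35) and Camk1d (1.25), each as Gabpa change minus the mean of the other experiments in log2. Other probesets had larger differences than most of these, with 2.49 for Uty (1426598_at) and 2.03 and 1.97 for Malat1 (1418188_a_at and 1438403_s_at), whose probesets of smaller p differed by less. Mid1, an X-linked ubiquitin ligase of microtubules, read 9.91, 10.49 and 10.56 in induced clones, against 8.25, 9.49 and 7.98 in uninduced clones. Its groups did not overlap, with a change of 1.75, against −0.61 to 0.80 in the other experiments, and of 0.83 against uninduced 2. Aass, an enzyme of lysine breakdown, read 8.84, 8.71 and 8.77 in induced clones, against 7.001, 8.52 and 6.44 in uninduced clones. Camk1d, a calmodulin-dependent kinase, read 6.08, 6.15 and 5.89 in induced clones, against 4.16, 5.82 and 4.25 in uninduced clones. In both the induced arrays stood together and uninduced 2 lay just below them, so that the changes of 1.46 and 1.29 were 0.26 and 0.21 against uninduced 2. Jmjd1c, a candidate histone demethylase, kept more of its change (1.32 with all arrays, 0.69 against uninduced 2).

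On the lower side stood Efhc2 (−2.30), Crxos (−1.85), Aurkc (−1.42), Mgst1 (−1.34), Stra8 (−1.33), Jakmip1 (−1.28), Gm6958 (−1.26), Cidea (−1.25), Pnma5 (−1.23) and Pdgfrb (−1.23). Stra8, the retinoic acid-induced gene of meiotic entry, read 7.40, 7.09 and 7.10 in induced clones, against 9.28, 7.65 and 8.95 in uninduced clones. Its groups did not overlap, and the change was −1.43, against −1.05 to 0.26 in the other experiments, and −0.45 against uninduced 2. Mgst1, a microsomal glutathione transferase, read 5.78, 4.64 and 4.66 in induced clones, against 6.26, 5.83 and 5.87 in uninduced clones. Its change was −0.96, and −0.81 against uninduced 2, to which induced 1 lay close (5.78 against 5.83). Pdgfrb, a receptor of platelet-derived growth factor, read 5.02, 3.85 and 4.34 in induced clones and 5.59, 4.96 and 5.12 in uninduced clones, with overlap between induced 1 and uninduced 2. Cidea, a lipid droplet protein, read 4.12, 4.43 and 4.66 in induced clones and 6.46, 4.47 and 5.92 in uninduced clones. Against uninduced 2 its change of −1.21 was −0.06.

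The genes below were taken from the 55 probesets called in the same direction with all arrays and against uninduced 2, after their values had been seen. These 55 are 1.4% of the larger and 61.1% of the smaller list, and since the comparisons share 4 of the 6 arrays, their direction in both is no separate evidence. Of these 55, 38 were higher and 17 lower, and 16 carried no gene. Besides Chd8 they held Hdac2, a histone deacetylase, with 5.37, 5.18 and 5.57 in induced clones, against 5.27, 4.33 and 4.90 in uninduced clones, and Gsk3b, a kinase of the WNT pathway, with 5.55, 5.59 and 5.71 in induced clones, against 5.17, 5.01 and 4.96 in uninduced clones. Only Gsk3b of these 2 kept its groups apart. Taf1d, a subunit of the RNA polymerase I initiation complex, read 9.24, 9.49 and 9.46 in induced clones, against 8.80, 8.42 and 8.78 in uninduced clones. Impact, a translational regulator named for its imprinting, read 9.47, 10.32 and 10.08 in induced clones, against 9.01, 9.19 and 8.98 in uninduced clones. On the lower side, Apoc1, an apolipoprotein, read 9.04, 8.98 and 8.84 in induced clones, against 9.54, 9.53 and 9.42 in uninduced clones. Des, the intermediate filament desmin, read 6.65, 6.65 and 6.63 in induced clones, against 7.41, 7.35 and 7.16 in uninduced clones. In these 4 genes no value of one group fell within the other, and against uninduced 2 they changed by 0.98, 0.76, −0.57 and −0.71 (shared fit of limma, adjusted p = 0.0392, 0.0249, 0.0398 and 0.0161). Of the genes in this paragraph, Chd8, Gsk3b and Impact also passed with all arrays and no block, and Hdac2, Taf1d, Apoc1 and Des did not (adjusted p = 0.0766, 0.187, 0.233 and 0.0841).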

How the data were processed

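RNA of mouse ES cell clones was hybridised to Affymetrix Mouse 430_2 arrays. The authors deposited log2 values from RMA in the affy package (no version given), which their methods applied to the induced and uninduced arrays of an experiment together. Probesets were named by the platform annotation: 34958 have 1 gene, 932 several and 9211 none. No column was left unused (0).

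Arrays were grouped by the state and clone number in their labels. limma 3.58.1 in R 4.3.3 fitted induced minus uninduced with clone number as a block, on the 6 Gabpa arrays (45101 probesets) and on all arrays of the platform (6 and 108 others), clone within experiment as a block (45100 probesets, since 1 lacks a value), where the contrast with the other 18 experiments was also made. Benjamini-Hochberg adjustment ran over all probesets, with a threshold of 0.05. On simulated data at log2 changes of 0.5, 1 and 2, the 6-array fit found 1%, 52.5% and 85.5% of 200 changed probesets, and the fit over all arrays 75%, 99.5% and 100%. The simulation kept clone number as a true block and gave all arrays of a fit the same spread. In the data the numbers did not pair the Gabpa arrays, whose residual variance ranked 3 among the experiments. The rates therefore do not show how the fits perform on these arrays.

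The pairing was checked by the correlation of deviations from the state means for arrays of one number (0.05, −0.18 and 0.17, over 45101 probesets), which does not pair all 3 numbers. The clones come from separate cultures according to the study, but p-values measure the spread between these arrays only. No depth applies to arrays, and their number, 3 per state, limits the precision.

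Named genes were the GABP complex list, the 12 genes per direction with the smallest p in the 6-array fit, the 10 per direction with the largest difference from the other 18 experiments, 1 probeset per gene by the smallest p in the 6-array fit (both among probesets with 1 gene, moved one way in 3 clones and at or above the median level of all probesets in the higher state), and, for each list described, up to 4 members with the smallest p and any called member. Brighter probesets have a mean at or above the median. Lists use the probeset of highest mean level per gene. The members and lists were chosen with earlier results of these data known. Clone-marking probesets are the 50 with the largest spread between clones relative to that within clones in the other 18 experiments, at a clone SD of at least 0.75. Promoters came from RefSeq (GRCm38.p6). Alternatives were the clone block, each replicate left out, brighter probesets, a second quantile normalization, trend and robust variances, array weights, a test of the Cyber-t kind (prior weight 10), the methods' t-test and a threshold of 0.01. The contrast was also made with only the other experiments at 24 h. The shared fit without the block, the comparison against uninduced 2 alone, the removal of chromosomes 15 and Y and the clone 2 pair alone were chosen after seeing the data. Python 3.11.15, pandas 2.3.3, numpy 2.4.6 and matplotlib 3.10.9 made the other tables and figures.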

Additional observations from a re-analysis of the deposited data

Results flagged for a closer look

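The change in the Gabpa clones differed from the mean change of the other 18 experiments, by limma's contrast over all arrays of the platform with Benjamini-Hochberg adjustment, for the genes named by the size of that difference, each at its probeset of smallest p in the 6-array fit. Probesets not taken by this rule reached 2.49 for Uty (1426598_at) and 2.03 for Malat1 (1418188_a_at). On the higher side the differences in log2 were 2.01 for Uty (adjusted p = 2.37e-07), 1.69 for Kcnq1ot1, 1.68 for Chac1, 1.66 for Mid1, 1.51 for Aass, 1.42 for Uba1y, 1.42 for Jmjd1c, 1.35 for Spink1, 1.35 for Wnk1 (adjusted p = 0.0114) and 1.25 for Camk1d. On the lower side they were −2.30 for Efhc2 (adjusted p = 2.32e-08), −1.85 for Crxos, −1.42 for Aurkc, −1.34 for Mgst1, −1.33 for Stra8, −1.28 for Jakmip1, −1.26 for Gm6958, −1.25 for Cidea, −1.23 for Pnma5 and −1.23 for Pdgfrb. These 20 genes were selected by this contrast, so their size is a description. Against uninduced 2 alone, where 0 of the 20 were called, Wnk1 changed the most (1.73), and Uty, Uba1y, Chac1, Efhc2, Gm6958 and Cidea changed by between −0.13 and 0.21.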

How the results depend on the processing

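The count of called probesets in the fit of the 6 arrays (0) stayed at 0 except with replicate 2 left out, with the test of the Cyber-t kind (101) and with the shared spread (3921). Leaving out each replicate gave 0 to 1959. At an unadjusted p under 0.05 (5196) the counts were 2088 to 7301 with a replicate left out (2088 without replicate 3), 3215 over brighter probesets and 2541 against uninduced 2. In the shared fit (3921) they were 816 to 4732 with a replicate left out (2577 without replicate 1, 816 without replicate 3), 613 with the clone 2 pair alone, 90 against uninduced 2 and 1907 at an adjusted p under 0.01. In the contrast with the other experiments (4098) they were 988 to 4724 (988 without replicate 3), 145 against uninduced 2 and 2046 at 0.01. Without chromosomes 15 and Y the 2 counts were 3534 and 3707. The median of genes with CCGGAAGTG (−0.0372) was −0.0375 to −0.0237 with a replicate left out (−0.0237 without replicate 2), −0.0557 against uninduced 2 and −0.0311 for CGGAAGTG. Several of these settings use fewer arrays, clones or probesets, and the causes of the differences were not tested.

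The counts above use clone number as a replicate block, although the correlation of deviations does not pair the Gabpa arrays by number. Without the replicate block the shared fit called 520 probesets (417 higher, 103 lower), the contrast 564 (422 higher, 142 lower) and the 6-array fit 0 (5158 at an unadjusted p under 0.05).

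Signs reversed among values near 0 with a replicate left out, where Gabpb1 ran from −0.24 to 0.053, Gabpb2 from −0.051 to 0.083 and Gabpa (1450664_at) from −0.052 to 0.078 (each the lowest and highest of 3), and for Gabpb2 with a second quantile normalization (−6e-04). Against uninduced 2 they reversed for Gabpa (−0.019 and 0.16 for its probesets), Gm6958 (0.057, and 0.0043 as the difference from the other experiments), Nrf1 (−0.10), Mrpl32 (0.067), Brix1 (0.059), Myc (0.19), Gadd45a (0.030), Fbxo15 (0.096), Lama1 (−0.13), Fn1 (−0.0035), Jun (0.057), Ier3 (−0.54), Id3 (0.31), Lefty1 (0.30), Ddit4 (−0.33), Trib3 (−0.025), Cebpg (−0.088), Pfkfb3 (−0.083) and Dnajb9 (0.13).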
